A study of Mus musculus with 12 samples.

Results

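The kinesins are the motor proteins that walk along microtubules or take them apart. The 41 genes described here were defined by name, out of 24421 genes in the table. They are every entry whose symbol is Kif or Kifc followed by a number and at most 1 letter from a to c. The family was chosen with earlier results of these data known. By known role they were divided into 14 mitotic motors, 14 transport motors, 6 kinesins of the cilium and 7 others. RNA came from cells positive for green fluorescent protein (GFP) that were sorted from the cerebellum of Aldh1l1-GFP mice at postnatal day 1, 7, 14 or 28 (P1, P7, P14 and P28), with 3 libraries per time point and 12 in all. All groups share the same tissue, the same reporter and no treatment, so that age is the only difference the labels give. In these mice GFP is driven by the promoter of Aldh1l1, a folate enzyme of astrocytes. The sort therefore selects cells in which that promoter is or recently was active and not astrocytes by any second criterion. The mice were C57/BL6J of both sexes. The labels do not say whether the 3 libraries of a time point came from separate animals, so the p-values measure the spread between these libraries, which may be technical.

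Kinesins share a motor domain that turns ATP hydrolysis into movement along a microtubule. Mitotic kinesins build the spindle, move chromosomes and divide the cell at cytokinesis, and they are made mainly in the G2 and M phases of the cell cycle. Transport kinesins carry vesicles, mitochondria and RNA towards the microtubule plus end and are known best from axons, although astrocytes use them in their processes as well. In the postnatal cerebellum, granule neuron precursors divide in the external granular layer, glial progenitors divide in the white matter and the Purkinje cell layer, and both stop within the first weeks of life.

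The libraries held 6399499 to 14733985 reads on genes. Values are normalized counts, that is reads divided by one size factor per library. Of the 41 kinesins, 40 had a read in at least 1 library and 39 reached a normalized count of 10 in 3 libraries, which was required for testing. Kif2b had no read in any library and Kif12 had a normalized count of 4.29 in a single P1 library. Of the mitotic motors 13 of 14 were tested, of the transport motors all 14, of the cilium kinesins all 6 and of the others 6 of 7. Genes were called at an adjusted p under 0.05 (limma, Benjamini-Hochberg over 15464 genes). Where limma is named with no other setting, the main fit is meant, with all 12 libraries and the authors' size factors.

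The libraries held RNA of marker genes of several cell types at every age. The share of each type among the sorted cells cannot be read from these sums. The summed normalized counts of 10 astrocyte markers lay between 54476 and 69974 at P1, between 26919 and 50672 at P7, between 146902 and 186390 at P14 and between 335449 and 391902 at P28, and no marker of the list was at 0. All P7 sums were below all P1 sums. Aldh1l1, the gene whose promoter drives the sort, had 5008 ± 1320 normalized counts at P1, then 1470 ± 525 at P7, 1879 ± 86.1 at P14 and finally 2921 ± 446 at P28, and fell from P1 to P7 (log2 fold change -1.80 ± 0.25, adjusted p = 0.000466, limma). Slc1a3 and Slc1a2, the glutamate transporters, had the highest means over all 12 libraries (10471 ± 3157 and 7676 ± 2453 at P7, 121507 ± 12639 and 87579 ± 5707 at P28). The 8 oligodendrocyte markers lay between 1525 and 2370 at P1, between 21699 and 33361 at P7, between 311037 and 369680 at P14 and between 101890 and 141604 at P28. The 12 neuron markers lay between 8849 and 16656 at P1, 21815 and 26907 at P7, 28703 and 49295 at P14, and 20800 and 26140 at P28. P7 replicate 2 stood apart from the other P7 libraries, with the fewest reads of all libraries (6399499), the lowest astrocyte sum of all (26919, against 50672 and 47059 in the other P7 libraries) and the highest sum of 6 endothelial markers (8695, against 2192 and 1499). In bulk RNA, fewer cells of a type and less RNA per cell cannot be told apart, and this holds for every kinesin below.

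The mitotic and the transport motors followed different courses. The summed level of the mitotic motors was 4406, 2623 and 4788 normalized counts in the 3 P1 libraries, 5790, 7222 and 6231 at P7, 568, 369 and 532 at P14, and 224, 258 and 396 at P28. The P7 libraries were the highest, also with replicate 2 left aside, and all P14 and P28 libraries lay below all P1 libraries.
The summed level of the transport motors was 23615, 22498 and 24360 at P1, 22151, 20368 and 23407 at P7, 26679, 32737 and 34687 at P14, and 39678, 39111 and 40218 at P28. With the authors' size factors, all P14 libraries lay above all P1 and P7 libraries, and all P28 libraries above all P14 libraries. As a share of the reads on genes this order did not hold. P14 replicate 1, with 25192 transport reads of 9573905, was below P1 replicate 3, with 32170 of 11478899. P14 replicate 3, with 31941 of 9470510, was above P28 replicate 2, with 33160 of 10269334. The transport motors had 2.82 to 8.58 times the summed level of the mitotic motors at P1 and P7, 47.0 to 88.7 times at P14 and 102 to 177 times at P28. Sums of normalized counts weigh long and abundant genes most, and Kif1a and Kif1b make up a large part of the transport sum.

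**Figure D1:**
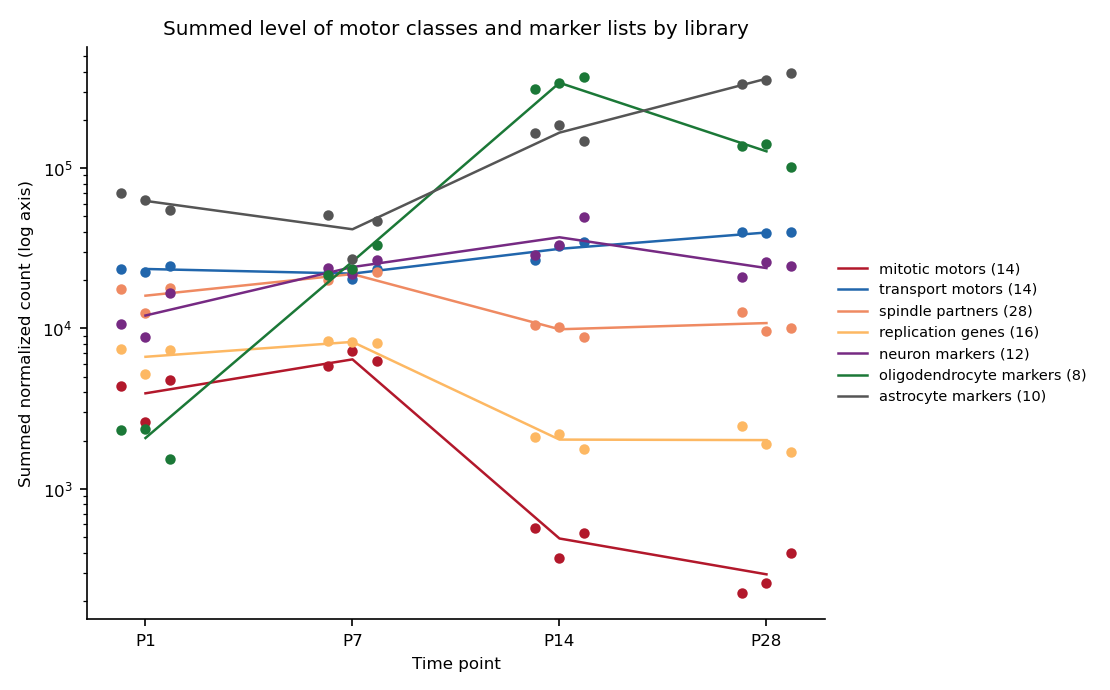
Summed normalized count on a log axis in each library (points) with the mean per time point (lines), for the mitotic and transport motors and for lists of spindle partners, replication genes and cell type markers, with the number of genes in parentheses. Mitotic motors fall from 5790 to 7222 at P7 to 369 to 568 at P14, while oligodendrocyte markers rise from 21699 to 33361 at P7 to 311037 to 369680 at P14.

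**Figure D2:**
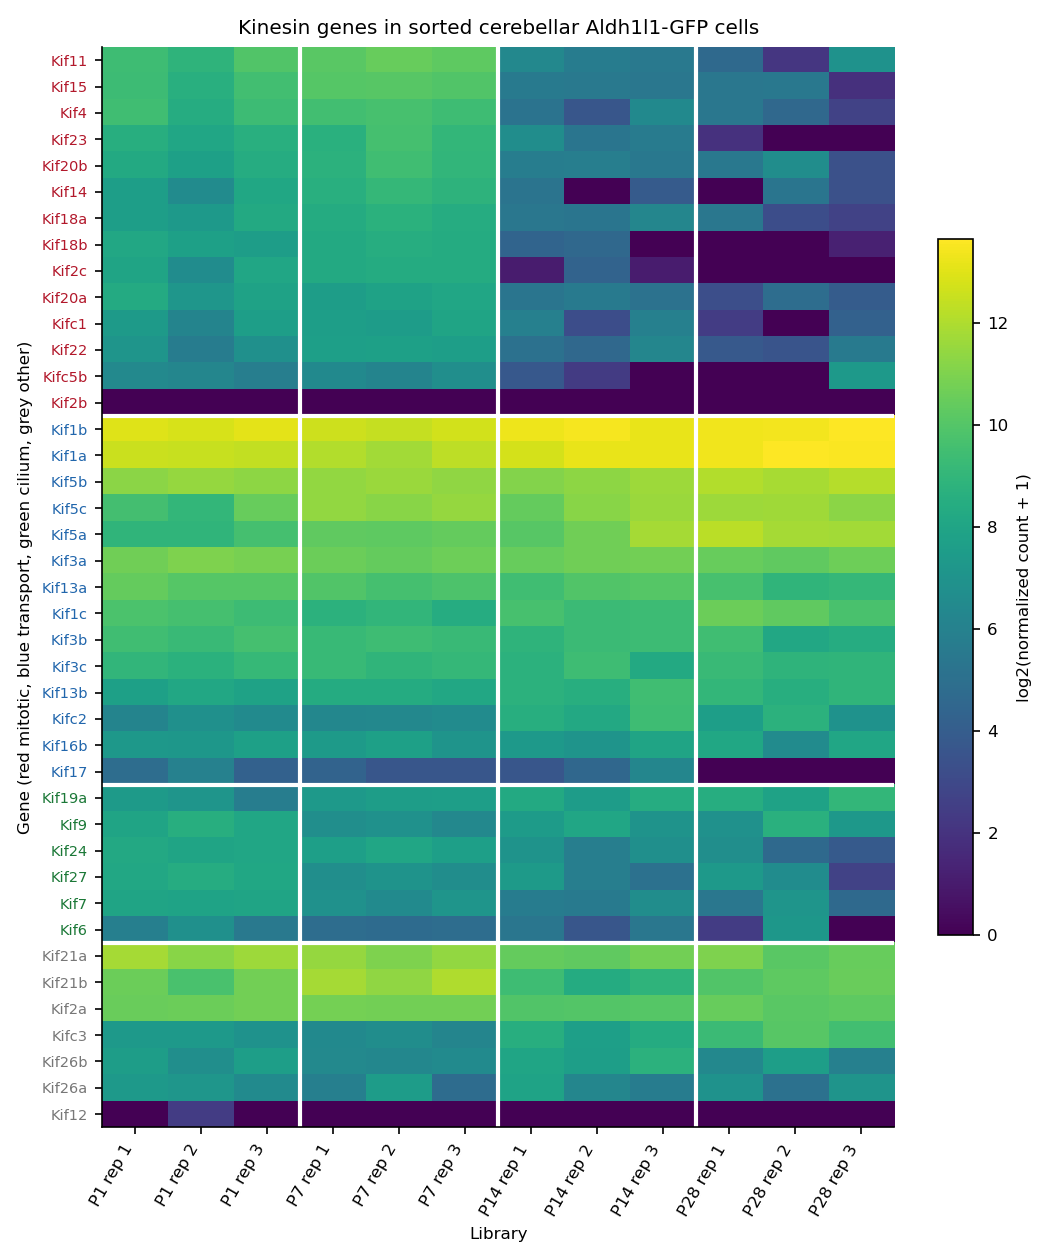
Level of the 41 kinesins as log2(normalized count + 1) in the 12 libraries, ordered by class and then by mean level. The mitotic block is bright at P1 and P7 and dark at P14 and P28, Kif2b is at 0 throughout, and Kif1a and Kif1b are the brightest rows at every age.

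Among the mitotic motors the change fell in the second postnatal week. From P1 to P7, 0 of 13 tested motors were called in either direction by limma, against 3.47% of all genes called higher and 4.24% called lower, and all 13 estimates were above 0 with a median log2 fold change of 0.73 (0.037 over all genes). The count was 0 as well at an unadjusted p under 0.05 and with edgeR and DESeq2, but 5 were called higher when only the P1 and P7 libraries were fitted. From P7 to P14, 11 of 13 were called lower and 0 higher, against 10.0% lower and 10.8% higher in the background. The median log2 fold change of the 13 was -4.40, with a range from -6.21 to -2.38, beside -0.086 for all genes. Without P7 replicate 2, 10 of 13 were called lower. The remaining pair, the minus-end directed spindle motor Kifc1 and its near copy Kifc5b, had log2 fold changes of -2.69 ± 0.98 (SE) and -4.40 ± 1.55 with adjusted p of 0.0667 and 0.0585 (limma). Both were called lower with scaling by library totals, a pseudocount of 10, only the ages compared, or P28 replicate 2 or 3 left out. Kifc1 was also called lower with DESeq2 and with the replicate number as a block, and Kifc5b without P28 replicate 1. From P14 to P28 only Kif23 was called lower, against 8.76% of all genes lower and 5.68% higher. Between P1 and P28, 12 of 13 were called lower, Kifc5b excepted, against 20.0% lower and 14.6% higher, with a median log2 fold change of -4.82. Kifc5b was called lower as well without P28 replicate 3 (-6.16, adjusted p = 0.00031, limma) and with library totals (-3.97, adjusted p = 0.0442, limma). The highest mean was at P7 for 12 of the 13 and the lowest at P28 for 11.

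**Figure D3:**
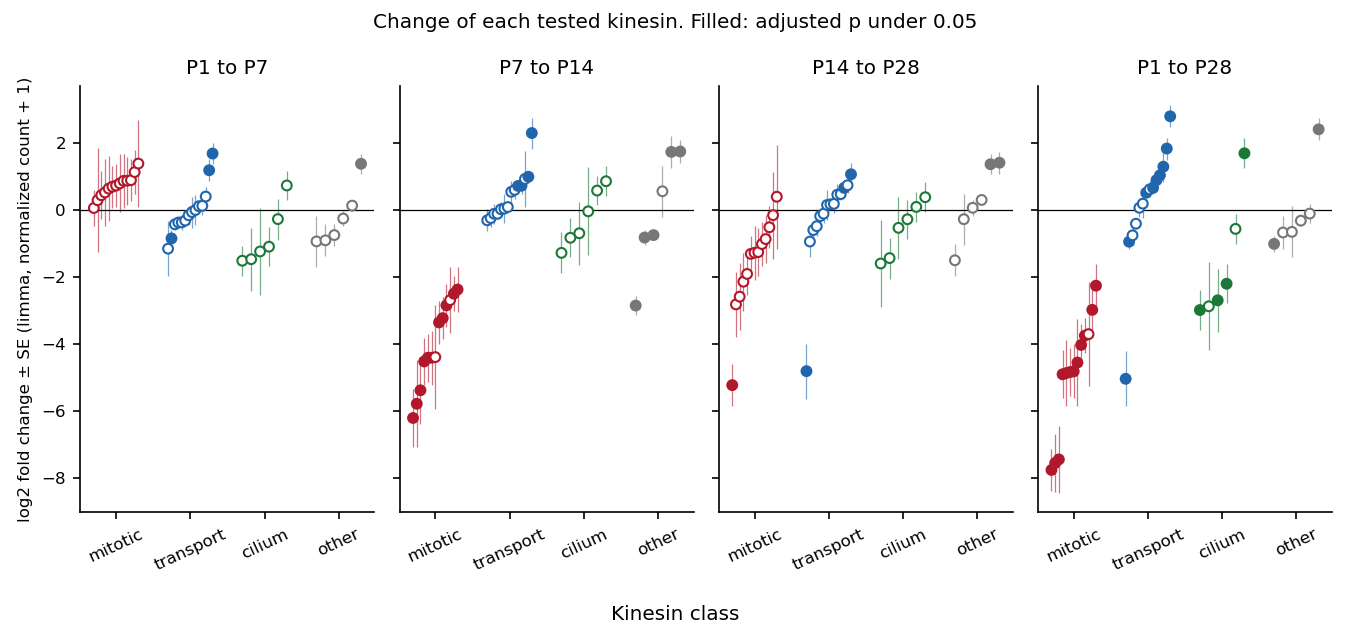
Log2 fold change with its SE (limma, normalized count + 1) of each of the 39 tested kinesins in 3 consecutive steps and over the whole course, by class and sorted within a class. Filled points have an adjusted p under 0.05. In the step from P7 to P14 all 13 mitotic motors lie below 0, from -6.21 to -2.38, while the transport motors range from -0.31 to 2.30.

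Promoters of genes that are switched on late in the cell cycle are known for the CCAAT box, which the factor NF-Y binds, and the cell cycle genes homology region (CHR, letters TTTGAA or less often TTCGAA), which the DREAM and MuvB complexes bind. Promoters were taken from RefSeq on GRCm38.p6 as 250 bases before to 50 bases after the start, and a promoter was found for 33 of the 41 kinesins. The 13 mitotic promoters include that of Kif2b, which had no read, and those of the near copies Kifc1 and Kifc5b. None was found for Kif20a. For Kif14, Kif2c and Kif4 the 150 bases before the start lie inside the annotated gene. The counts include matches in all of these promoters. On either strand, CCAAT was present in 9 of 13 mitotic promoters (69.2%), in 3 of 10 transport promoters (30.0%) and in 41.1% of 27025 promoters of the table. The CHR letters were present in 11 of 13 mitotic promoters (84.6%), in 1 of 10 transport promoters (10.0%) and in 21.7% of all. Both were present in 8 of 13 mitotic promoters (61.5%), in 0 of 10 transport promoters and in 9.65% of all. The motifs share no letters by which a match to one is a match to the other, and a match describes letters and not a bound site. The 150 bases before the start are shown for 3 mitotic motors and for 2 transport motors that rose. Among the 13 mitotic motors with a promoter, Kif11 and Kif22 are the only ones with both motifs in this shorter stretch, and Kif18b holds CCAAT only. The counts above cover 250 bases before to 50 bases after the start and include matches outside the stretch shown. Sequences run 5′ to 3′ in the direction of the gene. Capitals mark CCAAT (or ATTGG, its reverse complement) and the CHR letters (or their reverse complement).
Kif11, 19:37376232-37376381, plus strand: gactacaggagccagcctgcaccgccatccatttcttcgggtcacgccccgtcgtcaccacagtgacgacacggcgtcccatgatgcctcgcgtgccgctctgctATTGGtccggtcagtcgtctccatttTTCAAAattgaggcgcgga
Kif22, 7:127042421-127042570, minus strand: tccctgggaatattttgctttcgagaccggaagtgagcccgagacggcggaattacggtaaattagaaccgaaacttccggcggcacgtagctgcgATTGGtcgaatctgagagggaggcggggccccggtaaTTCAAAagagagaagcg
Kif18b, 11:102925125-102925274, minus strand: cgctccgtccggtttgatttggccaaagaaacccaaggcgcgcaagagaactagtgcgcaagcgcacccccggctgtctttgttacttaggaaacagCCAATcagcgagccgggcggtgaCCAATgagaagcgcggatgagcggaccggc
Kif1a, 1:93101875-93102024, minus strand: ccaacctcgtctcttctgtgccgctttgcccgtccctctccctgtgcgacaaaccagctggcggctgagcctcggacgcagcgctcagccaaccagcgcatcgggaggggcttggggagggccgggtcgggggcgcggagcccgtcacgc
Kif5c, 2:49619136-49619285, plus strand: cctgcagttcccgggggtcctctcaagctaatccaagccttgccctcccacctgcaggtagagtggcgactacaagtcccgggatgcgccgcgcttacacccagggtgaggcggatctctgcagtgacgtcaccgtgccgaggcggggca
In Kif11 the CCAAT letters begin 45 bases and the CHR letters 19 bases before the start, and in Kif22 they begin 54 and 17 bases before it. Kif18b has CCAAT letters at 53 and 30 bases before the start. In the windows of Kif1a and Kif5c none of these letters occur. Kif1b, a transport motor that also rose, is not shown. It has CCAAT letters at 118 and 87 bases before a start and at 122 bases before a second start. RefSeq lists a second start for Kif1a, and its window, not shown, holds 1 match to the CHR letters.

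Kif11 (chromosome 19, 37376403 to 37421859, plus strand, GRCm38) is the plus-end motor that pushes the spindle poles apart. Its normalized count was 688, 478 and 984 at P1, 1125, 1424 and 1238 at P7, 82.6, 52.9 and 44.5 at P14, and 24.8, 3.54 and 122 at P28. The P7 libraries were all above those of P1, and P14 lay at 0.0475 times the P7 mean with no overlap (log2 fold change -4.41 ± 0.81, adjusted p = 0.00132, limma). The means of P1 and P7 were 717 ± 254 and 1262 ± 151 (SD, n = 3), and the P14 and P28 libraries overlapped. Kif15, which works beside Kif11 on the spindle, fell from 1053 ± 56.6 at P7 to 44.8 ± 3.25 at P14 (log2 fold change -4.53 ± 0.72, adjusted p = 0.000415, limma).

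The kinesins of chromosomes and of microtubule ends included the steepest fall. Kif2c, which removes tubulin at centromeres, had 250, 97.2 and 273 normalized counts at P1, 312, 336 and 333 at P7, 1.06, 19.0 and 1.09 at P14, and 0 in all 3 P28 libraries. Its fall from P7 to P14 was the steepest of all kinesins (log2 fold change -6.21 ± 0.86, adjusted p = 0.000144, limma). With a floor of 3 reads per library, P28 was at least 51.8-fold lower than P1 and at least 1.77-fold lower than P14.
Kif18b, a motor that shortens astral microtubules, had 293, 216 and 196 normalized counts at P1, 310, 363 and 332 at P7, 20.1, 23.3 and 0 at P14, and 0, 0 and 1.35 at P28. It fell from P7 to P14 (log2 fold change -5.39 ± 1.00, adjusted p = 0.00147, limma). A single read remained at P28 and the ratio of P1 to P28 was 543, with a 95% counting interval of 97.3 to 21470. Kif18a, which dampens chromosome movement at the metaphase plate, Kif22, which pushes chromosome arms, and Kif4, a chromatin-bound motor, were also called lower from P7 to P14, with log2 fold changes of -2.85, -2.38 and -4.42. The call for Kif22 was lost without P7 replicate 1, 2 or 3 and without P14 replicate 1 or 2, with adjusted p up to 0.0788 over its alternatives. Kif4 is on the X chromosome, and Ddx3y, a Y-linked gene, was above 100 normalized counts in 3 P1, 1 P7, 0 P14 and 2 P28 libraries, so that sex was unevenly spread over the ages.

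The kinesins of cytokinesis included the only mitotic motor called lower again after P14. Kif23, the motor of the centralspindlin complex at the midbody, had 375, 270 and 397 normalized counts at P1, 407, 798 and 529 at P7, 102, 38.1 and 51.0 at P14, and 2.92, 0 and 0 at P28. No library of a later age overlapped one of an earlier age after P7. It fell from P7 to P14 (log2 fold change -3.23 ± 0.63, adjusted p = 0.00212) and from P14 to P28 (-5.23 ± 0.63, adjusted p = 0.000311, both limma). The first was lost with a pseudocount of 0.1 (adjusted p = 0.0503). The 3 P28 libraries held 2 reads of Kif23 against 179 at P14, a ratio of 72.3 with a 95% counting interval of 19.7 to 602.
Kif20a (chromosome 18), which carries the chromosomal passenger complex to the midzone, had 322, 144 and 236 normalized counts at P1, 193, 237 and 273 at P7, 38.1, 48.7 and 34.8 at P14, and 8.77, 28.3 and 14.9 at P28. The P1 and P7 libraries overlapped, and the libraries of P14 and P28 lay below them without overlap (P7 to P14, log2 fold change -2.50 ± 0.53, adjusted p = 0.00356, limma). Its means at P1 and P7 were nearly equal (234.3 ± 89.0 and 234.1 ± 40.2), and it was the one tested mitotic motor without its highest mean at P7.
Kif14, a partner of the midbody kinase citron, had 198, 95.7 and 282 normalized counts at P1, 393, 544 and 453 at P7, 37.1, 0 and 14.1 at P14, and 0, 38.9 and 9.47 at P28. It fell from P7 to P14 (log2 fold change -5.79 ± 1.30, adjusted p = 0.00518, limma) and the P14 and P28 libraries overlapped. Kif20b, which acts late in abscission, fell from 545 ± 136 to 51.5 ± 7.02 in the same step (log2 fold change -3.36 ± 0.63, adjusted p = 0.0016, limma).

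**Figure D4:**
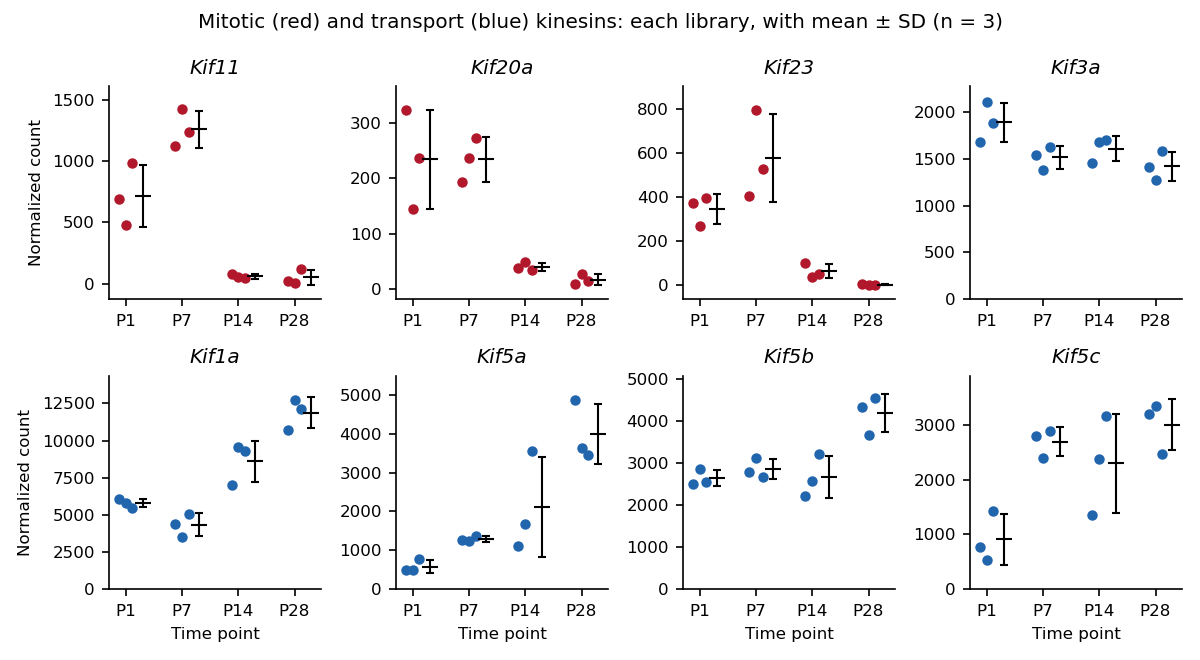
Normalized count of 3 mitotic motors (red) and 5 transport motors (blue) in each library (points), with the mean and SD of 3 libraries (bars) beside them, each panel on its own linear axis. Kif11, Kif20a and Kif23 stand at 0 to 122 from P14 on, while Kif1a rises from 3526 to 5086 at P7 to 10716 to 12765 at P28.

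Single libraries stood out at P1 and at P7. P1 replicate 2 was the lowest P1 library for 11 of the 13 mitotic motors with reads. It also had the lowest summed level of the 16 replication genes (5186, against 7330 and 7449) and of the 12 neuron markers (8849, against 10614 and 16656). Its sums of endothelial markers (3344, against 728 and 1016) and ependymal markers (3582, against 1816 and 1436) were the highest at P1. P7 replicate 2, the library with the fewest reads and likewise high endothelial markers, was the highest P7 library for 10 of these 13 mitotic motors. The part of either library's makeup in these levels was not tested. Kifc1 and Kifc5b are close copies, and how reads shared by both were counted is not stated. P28 replicate 3 had 162 normalized counts of Kifc5b and 17.6 of Kifc1, while the other 2 P28 libraries had 0 of Kifc5b. Kif18a, Kif20a and Kif4 overlap protein-coding genes on the opposite strand, and the use of strand in counting is not stated.

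The non-motor partners of the mitotic kinesins moved in the same step. Of 28 spindle and cytokinesis partners, 1 was called higher and 0 lower in the step from P1 to P7. In the next step 1 was called higher and 23 lower, with a median log2 fold change of -4.00, and in the last 1 higher and 12 lower. The shares over all genes were 3.47% higher and 4.24% lower in the first step, 10.8% and 10.0% in the second, and 5.68% and 8.76% in the last. The 2 partners with the highest mean over all libraries have tasks outside mitosis as well and stayed high. Ckap5, a microtubule polymerase, was at 3973 ± 292 at P7 and 3925 ± 294 at P14, and Numa1, which anchors dynein at spindle poles, at 1611 ± 57.7 and 1160 ± 165. The member called higher in the first 2 steps was Anln, an actin-binding protein of the cleavage furrow, at 389 ± 119, 992 ± 188 and 2800 ± 726 at P1, P7 and P14. Anln was called lower from P14 to P28 (log2 fold change -1.68, adjusted p = 0.0037, limma).
Of 16 replication genes, 0 were called in the first step by limma, 1 higher at an unadjusted p and 0 with edgeR and DESeq2. Then 12 were called lower and 0 higher (10.0% of all genes were lower), and in the last step 4 lower and 0 higher (8.76%). The 2 with the highest mean over all libraries were Pcna, the sliding clamp (1927 ± 126 at P7 and 783 ± 190 at P14), and Mcm4, a subunit of the replicative helicase (917 ± 43.6 and 271 ± 119).

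Lists of markers for granule precursors and oligodendrocyte precursors were measured beside these motors. Some members are also made by other cells, so the sums do not measure the number of dividing cells. The 9 granule precursor markers summed to between 5468 and 6681 normalized counts at P1, between 13899 and 15284 at P7, between 8303 and 11183 at P14 and between 8168 and 8578 at P28. Of these, 3 were called higher and 0 lower in the first step, and 1 higher and 3 lower in the second, beside 3.47% higher and 4.24% lower and then 10.8% and 10.0% of all genes. Atoh1, the transcription factor that defines these precursors, was at 0, 15.9 and 16.0 at P1, between 30.3 and 45.0 at P7, and at 0 in all libraries of P14 and P28. The highest means over all libraries were those of Zic1, which granule neurons also make (6798 ± 1058 at P7 and 4911 ± 742 at P14), and Mfap4 (3275 ± 901 and 767 ± 170). The 6 markers of oligodendrocyte precursors summed to between 7124 and 11304 at P1, between 3839 and 4857 at P7, between 6770 and 8021 at P14 and between 2335 and 3586 at P28, with Gpr17 (1506 ± 261 at P7 and 3052 ± 458 at P14) and Pdgfra (1281 ± 65.6 and 720 ± 90.7) the highest over all libraries. Their part in the course of the mitotic motors was not tested.

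Among the transport motors more calls were upward than downward in each step with the authors' size factors, whereas library totals gave 0 higher and 2 lower from P14 to P28 and 3 higher and 4 lower between P1 and P28. In the step from P1 to P7, 2 of 14 were called higher and 1 lower. In the step to P14, 4 were called higher and 0 lower, in the step to P28 2 higher and 1 lower, and between P1 and P28 7 higher and 2 lower, against the background shares given above. The median log2 fold changes were -0.11, 0.32, 0.16 and 0.57, beside 0.037, -0.086, -0.12 and -0.24 over all genes. With scaling by library totals in place of the authors' size factors, the medians were -0.052, 0.059, -0.077 and 0.13 and the all-gene medians 0.096, -0.34, -0.35 and -0.67. The share of higher calls among all called genes over the whole course was 42.3% with the size factors and 20.9% with library totals. The highest mean was at P28 for 7 of the 14 and at P1 for 4.

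Kinesin-1, the heavy chain dimer that carries vesicles and mitochondria, is encoded by 3 genes, which were called higher at partly shared steps. Kif5c (chromosome 2, 49619298 to 49774778, plus strand, GRCm38), mainly neuronal, had 763, 532 and 1432 normalized counts at P1, 2805, 2396 and 2900 at P7, 1361, 2384 and 3162 at P14, and 3199, 3350 and 2479 at P28. All P7 libraries were above all P1 libraries, the rise was 2.97-fold (log2 fold change 1.69 ± 0.33, adjusted p = 0.00528, limma), and the P14 libraries spread over both ranges.
Kif5a, the neuronal heavy chain that carries neurofilaments, had 481, 482 and 779 normalized counts at P1, 1257, 1245 and 1367 at P7, 1116, 1667 and 3563 at P14, and 4872, 3626 and 3463 at P28. Over the whole course it rose 6.86-fold, the largest rise of any kinesin (log2 fold change 2.80 ± 0.33, adjusted p = 1.78e-05, limma), with no overlap between P1 and P28. The single steps were less firm. The step from P1 to P7 (1.19 ± 0.33, adjusted p = 0.0396, limma) was not called without P1 replicate 1 or 2, without any of the P7 replicates 1, 2 and 3 or without P14 replicate 2 (adjusted p up to 0.153), nor without a filter or with edgeR. In the step from P14 to P28 (1.07 ± 0.33, adjusted p = 0.042, limma) the libraries overlapped, and the call was lost in 14 of 22 alternatives (adjusted p up to 0.177). These were P1 replicate 1, the P7 replicates 1, 2 and 3, P14 replicate 1 or 2 or the P28 replicates 1, 2 and 3 left out, and 5 other settings.
Kif5b (chromosome 18), the heavy chain of all cell types, had 2500, 2859 and 2549 normalized counts at P1, 2784, 3108 and 2666 at P7, 2214, 2565 and 3211 at P14, and 4324, 3673 and 4537 at P28. The first 3 ages overlapped, and all P28 libraries lay above them (P14 to P28, log2 fold change 0.66 ± 0.16, adjusted p = 0.0148, limma). This call was lost without P14 replicate 1 (0.54, adjusted p = 0.065) with library totals (0.42, adjusted p = 0.0863) and with only the ages compared.

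The kinesin-3 motors, which carry synaptic vesicle precursors and dense core vesicles, include Kif1a and Kif1b. These had the highest normalized counts of all kinesins at every age, before any correction for gene length. Kif1a (chromosome 1, 93015464 to 93101951, minus strand, GRCm38) had 6034, 5783 and 5492 normalized counts at P1, 4383, 3526 and 5086 at P7, 7020, 9536 and 9269 at P14, and 10716, 12765 and 12142 at P28. P7 was the lowest age, and from there the libraries of each age lay above those of the one before. The rise from P7 to P14 was 1.99-fold (log2 fold change 0.99 ± 0.16, adjusted p = 0.000566, limma), while the step from P14 to P28 missed the threshold (0.47 ± 0.16, adjusted p = 0.0671).
Kif1b, whose isoforms carry mitochondria and synaptic vesicle precursors, went from 6195 ± 609 at P7 to 10195 ± 900 at P14 (log2 fold change 0.72 ± 0.14, adjusted p = 0.00204, limma). Between P1 and P28 its rise of 0.52 was 0.079 with library totals and then not called (adjusted p = 0.656).
Kif1c, a widely made kinesin-3, had 875, 802 and 650 normalized counts at P1, 435, 512 and 350 at P7, 831, 643 and 659 at P14, and 1520, 1261 and 859 at P28. The P7 libraries were below all others, with a fall from P1 to P7 (log2 fold change -0.85 ± 0.24, adjusted p = 0.044, limma) and a rise from P7 to P14 (0.73 ± 0.24, adjusted p = 0.0448). Both calls sat near the threshold. The first was lost without P1 replicate 1 or 2, any P7 replicate or any P14 replicate, and the second without any P1 replicate, P7 replicate 1 or 3 or any P14 replicate. Both were also lost with library totals and without a filter, and the first with edgeR, with adjusted p up to 0.2 and 0.206 over all alternatives. Kif13b, a carrier of Dlg1, rose from 246 ± 39.2 at P1 to 458 ± 75.2 at P28 (log2 fold change 0.89 ± 0.28, adjusted p = 0.0222, limma), a call lost without P1 replicate 1 or 3 or P28 replicate 1, with only the ages compared and with library totals (lowest value 0.46, adjusted p up to 0.202). Kif13a, an endosomal motor, fell from 1163 ± 172 to 613 ± 172 over the same span (-0.95 ± 0.23, adjusted p = 0.00563, limma). Kif16b, an early endosome motor, was between 173 ± 35.0 and 217 ± 104 at all ages and was not called in any step by limma.

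The subunits of heterotrimeric kinesin-2, which serve both the cilium and transport in the cytoplasm, gave no call in the main limma fit. Kif3a (chromosome 11, 53567379 to 53601967, plus strand, GRCm38) had 1685, 2103 and 1880 normalized counts at P1, 1543, 1377 and 1625 at P7, 1455, 1679 and 1698 at P14, and 1413, 1273 and 1580 at P28. All P1 libraries were above all P7 libraries, the later ages overlapped, and no step passed in the main limma fit (P1 to P28, log2 fold change -0.41 ± 0.16, adjusted p = 0.0571, limma). Its partners Kif3b and Kif3c had log2 fold changes of -0.76 ± 0.29 and 0.07 ± 0.26 between P1 and P28 with adjusted p of 0.0563 and 0.868 (limma). With library totals Kif3a and Kif3b were called lower between P1 and P28 (-0.85 and -1.19), as were Kif3a with DESeq2 (-0.41) or without P28 replicate 3 (-0.49) and Kif3b without P28 replicate 1 (-1.14). A p above the threshold does not show that their levels were equal.
Kif17, the homodimeric kinesin-2 that carries NMDA receptor subunits in dendrites, was low, with 28.3, 62.9 and 18.2 normalized counts at P1, 19.1, 11.8 and 11.6 at P7, 11.6, 22.2 and 74.9 at P14, and 0 in all P28 libraries. P28 was at least 9.08-fold lower than P14 and at least 9.13-fold lower than P1, with 101 reads at P14 and 158 at P1 (P14 to P28, adjusted p = 0.00232, limma).
Kifc2, a minus-end directed motor of axons and dendrites, had 69.5, 113 and 90.9 normalized counts at P1, 79.6, 81.1 and 96.9 at P7, 379, 296 and 683 at P14, and 200, 431 and 124 at P28. All P14 libraries lay above those of P1 and P7, a rise of 5.27-fold from P7 (log2 fold change 2.30 ± 0.46, adjusted p = 0.00251, limma), and the P14 and P28 libraries overlapped. Kifc2 overlaps Cyhr1 on the opposite strand.

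Per kilobase of exon, which allows levels of different genes to be compared, transport motors held most of the first places. Kif1a was first at every age, with 618, 464, 923 and 1273 normalized counts per kb at P1, P7, P14 and P28, and its libraries overlapped those of the gene in the next place at P7 only. At P1 Kif3a (527), Kif21a (477) and Kif1b (456) came next, with overlap between Kif3a and Kif21a and between Kif21a and Kif1b. At P7 the libraries of each gene in the first 7 places overlapped those of the next. At P14 Kif1b (579) and Kif3a (449) followed Kif1a with no overlap, and at P28 Kif1b (652), Kif5a (570), Kif5b (523) and Kif5c (421) followed with overlap between each and the next. The best placed mitotic motor was Kif4 at P1, with 103 normalized counts per kb, and Kif11 at P7, with 169.

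**Figure D5:**
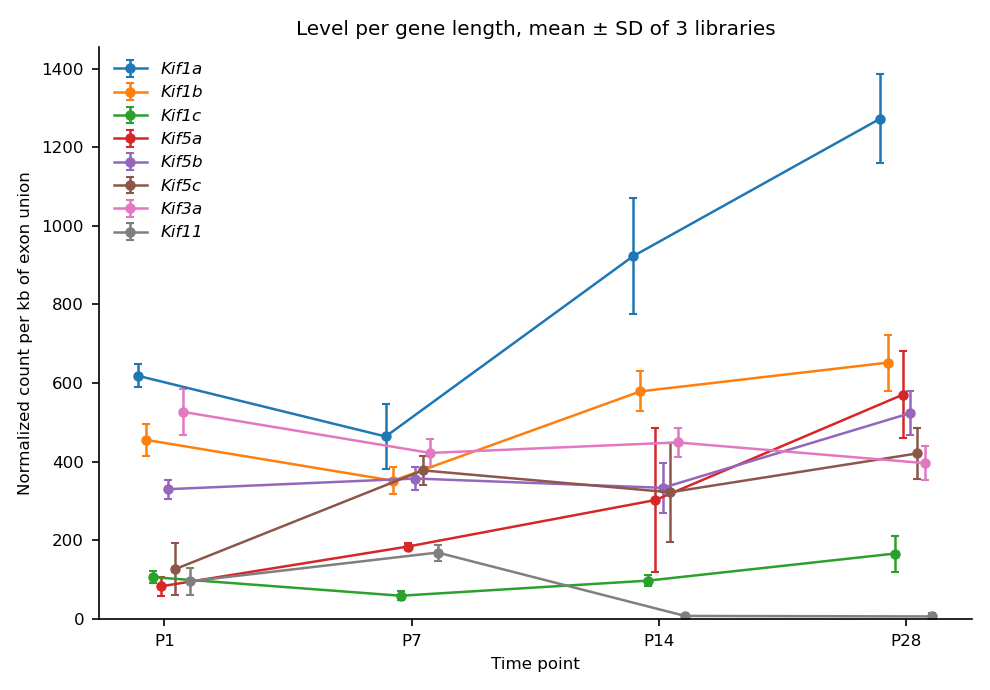
Normalized count per kb of exon (union of annotated exons) for 7 transport motors and the mitotic motor Kif11, as mean and SD of 3 libraries at 4 ages that are evenly spaced on the axis. Kif1a goes from 464 at P7 to 1273 at P28, Kif5a from 83.1 at P1 to 570 at P28, and Kif11 peaks at 169 at P7.

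The partners of the transport motors moved in both directions. Of 22 tested light chains, cargo adaptors and receptors, 2 were called higher and 1 lower in the first step, 5 higher and 1 lower in the second, and 0 higher and 3 lower in the last. Over all genes 3.47%, 10.8% and 5.68% were called higher and 4.24%, 10.0% and 8.76% lower in these steps. Kif1bp, which binds and holds back several kinesins, rose from 813 ± 57.5 at P7 to 1857 ± 199 at P14 (log2 fold change 1.19, adjusted p = 0.000274, limma). Mapk8ip1, a kinesin-1 adaptor, was at 836 ± 103, 1512 ± 202 and 601 ± 205 at P7, P14 and P28 and was called higher and then lower. Grip1, which links kinesin-1 to AMPA receptors, fell from 401 ± 85.2 to 45.3 ± 15.1 between P7 and P14. These 3 were chosen after their values were seen. The 2 members with the highest mean over all libraries were Kidins220, a scaffold for neurotrophin receptors (2795 ± 494 at P1 and 4316 ± 748 at P28), and Clstn1, a light chain binding cargo receptor (2687 ± 368 and 2509 ± 689). Of 20 subunits and regulators of dynein and dynactin, the motor of the opposite direction, 0 were called in the first step by limma, also at an unadjusted p and with edgeR and DESeq2, then 2 higher and 2 lower (close to the 10.8% and 10.0% of all genes), and in the last step 0 higher and 1 lower. Their 2 most abundant members were Dync1h1, the dynein heavy chain (8528 ± 229 at P7 and 5642 ± 671 at P14, called lower), and Dctn4 (3249 ± 373 and 3903 ± 160).

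Cell type markers were measured beside the transport motors too. The mean sums of the transport motors and of the astrocyte markers were higher at each of the 2 later steps. So were the mean sums at P7, P14 and P28 of ependymal markers (964, 1120 and 1730), light chains and adaptors (20129, 24875 and 25418) and dynein and dynactin (28769, 29170 and 32416). The mean sums of neuron and oligodendrocyte markers were higher at P14 than at P7 and lower at P28 than at P14. Of the 12 neuron markers, 6 were called higher and 0 lower in the first step, 4 higher and 3 lower in the second, and 1 higher and 4 lower in the last, beside 3.47% and 4.24%, 10.8% and 10.0%, and 5.68% and 8.76% of all genes. Snap25, a synaptic vesicle fusion protein, and Map2, a dendritic microtubule protein, had the highest means over all libraries (2303 ± 407 and 5989 ± 989 at P7, 21594 ± 7880 and 3837 ± 469 at P14). The 6 granule neuron markers summed to between 1351 and 1884 normalized counts at P1, between 2201 and 3294 at P7, between 10936 and 23050 at P14 and between 7450 and 9592 at P28, with Vsnl1 (5166 ± 2051 at P14) and Cbln3 (4207 ± 1931) the highest over all libraries. Gabra6, a receptor subunit of mature granule neurons, was at 0 in all P1 libraries and reached 2305 ± 931 at P14. P14 replicate 3 had the highest neuron sum of all libraries (49295) and was the highest P14 library for 10 of the 14 transport motors. The 8 oligodendrocyte markers had 7 members called higher in the first step, 8 higher in the second and 6 lower in the last, and the 10 astrocyte markers had 1 higher and 5 lower, 8 higher and 0 lower, and 6 higher and 0 lower in the 3 steps. Purkinje cell markers (led by Rgs8 and Car8) summed to 277 to 1907, microglia markers to 899.6 to 3617 and endothelial markers (Flt1 and Cdh5) to 728 to 8695 over all libraries. The part of these cells in the levels of the transport motors was not tested.

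Kinesins tied to the cilium had their highest mean at P1 in 5 of 6 cases. Between P1 and P28, 1 of 6 was called higher and 3 lower, beside 14.6% and 20.0% of all genes. In each single step 0 of 6 were called by limma, against 1, 0 and 1 lower and 0 higher at an unadjusted p, 0 with edgeR, and 1, 0 and 0 lower with DESeq2. Kif24, which trims centriolar microtubules, fell from 273 ± 26.9 at P1 to 48.8 ± 51.7 at P28 (log2 fold change -2.99 ± 0.61, adjusted p = 0.00179), and Kif7, which organizes the cilium tip for Hedgehog signalling, from 247 ± 6.49 to 69.0 ± 62.4 (-2.20 ± 0.58, adjusted p = 0.0091, both limma). Kif27, a relative of Kif7, had log2 fold change -2.70 ± 0.94 (adjusted p = 0.0375, limma), a call lost without any P1 replicate, P14 replicate 2 or P28 replicate 3, with edgeR and DESeq2 and with only the ages compared. Kif19a, which shortens motile cilia, rose from 121 ± 60.6 to 373 ± 142 (1.69 ± 0.44, adjusted p = 0.00889, limma), a call lost with only the ages compared (adjusted p = 0.0506). Kif9, a motor of motile cilia, and Kif6 were not called in any step in the main limma fit. For Kif9 the step from P1 to P7 was near the threshold (log2 fold change -1.52, adjusted p = 0.0572, limma) and was called with DESeq2, with the replicate block, with 10 reads in every library, with only the ages compared and without any P28 replicate. P28 replicate 2 held 412 of Kif9 and 146 of Kif6, above the other 2 P28 libraries, and without it both were called lower between P1 and P28 (-1.10 and -4.87) and Kif6 also from P14 to P28. The 8 ependymal markers, genes of cells with motile cilia, summed to 1436 to 3582 at P1 and 768.9 to 2116 at the later ages, with Foxj1, the master factor of motile cilia (778 ± 362 at P1 and 183 ± 26.1 at P7), and Rsph4a, a radial spoke protein (461 ± 325 and 157 ± 14.3), the highest over all libraries. Their part in these levels was not tested.

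The kinesins outside these classes included the only member called in all 3 consecutive steps. Kif21b, a motor that pauses microtubule growth in neurons and immune cells, had 1521, 867 and 1713 normalized counts at P1, 3614, 2672 and 4139 at P7, 675, 335 and 464 at P14, and 985, 1240 and 1479 at P28. The P7 libraries were above and the P14 libraries below all others. It rose 2.54-fold from P1 to P7 (log2 fold change 1.38 ± 0.29, adjusted p = 0.00908), fell to 0.141 times that level at P14 (-2.85 ± 0.29, adjusted p = 1.09e-05) and rose 2.51-fold to P28 (1.37 ± 0.29, adjusted p = 0.00798, all limma). The first of these was lost without P7 replicate 3 (1.24, adjusted p = 0.0539). Kif21a, its paralog, fell from 2586 ± 481 at P7 to 1456 ± 247 at P14 (log2 fold change -0.82 ± 0.23, adjusted p = 0.0207, limma), a call lost without P7 replicate 1 or 3 or P14 replicate 1 or 2.
Kif2a, the microtubule depolymerase of growth cones and spindle poles, fell from 1737 ± 25.8 to 1032 ± 28.2 in the same step (-0.75 ± 0.15, adjusted p = 0.00244, limma).
Kifc3, a minus-end motor of epithelial junctions, had 169, 161 and 122 normalized counts at P1, 89.2, 103 and 74.4 at P7, 375, 209 and 339 at P14, and 633, 1102 and 723 at P28. From P7 on, the libraries of each age were above those of the one before (P7 to P14, log2 fold change 1.75 ± 0.33, adjusted p = 0.00163, and P14 to P28, 1.41 ± 0.33, adjusted p = 0.0124, limma), and the last call was lost with only the ages compared (adjusted p = 0.0562).
Kif26b, a kinesin without motor activity that acts in Wnt signalling and cell adhesion, had 190, 105 and 203 normalized counts at P1, 83.6, 78.5 and 92.2 at P7, 263, 201 and 434 at P14, and 81.8, 198 and 60.9 at P28. P14 was above P7 in every library (log2 fold change 1.74 ± 0.48, adjusted p = 0.0189, limma), a call lost without P7 replicate 1, 2 or 3 or P14 replicate 3 (adjusted p up to 0.0882). Kif26a was not called in any step by limma.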

How the data were processed

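RNA from GFP-sorted cerebellar cells was sequenced in 12 libraries, grouped by the age in the sample labels. The authors aligned reads to mm10 with STAR (version 2.5.0a in the submitters' notes), counted them on UCSC transcripts and normalized with DESeq2 (version 1.30.1 in those notes). The deposited values are a normalized signal: per gene, the authors divided reads by a size factor of the library. Dividing by each library's step gave whole reads for 100% of values (tolerance 0.01). Columns were matched through the sample descriptions, and all column names carry P28, which was not used. Strand use and the treatment of shared reads are not given in the sources used here.

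Genes that reached 10 in 3 or more libraries were fitted with limma (version 3.58.1) in R 4.3.3, on log2 of the value plus 1. A single fit held all libraries with one coefficient for each age and a variance trend, and p-values were adjusted by Benjamini-Hochberg. Because of the added 1, changes of low genes are understated. edgeR (version 4.0.16) and DESeq2 (version 1.42.0) were run on the recovered reads as alternatives. On simulated counts the fits were tested with 200 changed genes. Intervals and floors cover counting error only. Coordinates are from GENCODE M21 (GRCm38).

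Kinesin members, gene lists and alternatives were chosen with earlier results of these data known. The kinesins given with every library are Kif11, Kif20a, Kif23, Kif1a, Kif5a, Kif5b, Kif5c and Kif3a, and at each consecutive step the 3 called members with the largest rise and the 3 with the largest fall. Of each other list the 2 members of highest mean are named, except in lists where a member is not reported here, with other genes said to be so or given as background for a result. A planned description of protein sequences was not made.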

Additional observations from a re-analysis of the deposited data

How the results depend on the processing

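Of 57 calls of single kinesins, 38 held in every alternative that tested them, 19 were lost in at least 1 and 0 changed direction. Of the counts, mitotic motors called higher from P1 to P7 were 5 with only the ages compared (0 in the report). Mitotic motors called lower from P14 to P28 (1) were 3 with library totals, 2 with a pseudocount of 0.1, 2 with edgeR, 5 with DESeq2, 6 at an unadjusted p under 0.05 with a log2 fold change over 0.75, and 1 to 3 with a library left out. Transport motors called higher from P1 to P7 (2) were 1 without a filter and with edgeR and 1 to 2 with a library left out, and those called lower (1) were 0 with library totals, without a filter and with edgeR and 0 to 1 with a library left out. From P7 to P14, transport motors called higher (4) were 2 at the unadjusted threshold. From P14 to P28, those called higher (2) were 0 with library totals and with only the ages compared, 1 without a filter, with edgeR and at the unadjusted threshold and 0 to 2 with a library left out, and those called lower (1) were 2 with library totals, 0 with 10 reads in every library and 1 to 3 with a library left out. From P1 to P28, 3 were higher with library totals (7), and 4 were lower with library totals and 1 with 10 reads in every library (2). The cause of these shifts was not tested, except that 10 reads in every library leaves 0 mitotic and 13 transport motors to test.

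Uncalled log2 fold changes that turned were Kif14 from P14 to P28 (0.94, 0.28 and 1.30 without P14 replicate 1, P14 replicate 3 and P28 replicate 1, range with a library left out -1.68 to 1.30), Kif20a from P1 to P7 (-0.00178 with DESeq2, -0.25 without P1 replicate 2 and -0.0577 without P7 replicate 3, range -0.25 to 0.33), Kif3a from P7 to P14 (-0.17 with library totals), Kif5b and Kif5c from P7 to P14 (0.012 and 0.029 without P14 replicate 1, ranges -0.26 to 0.012 and -0.58 to 0.029), and Kifc2 from P1 to P7 (0.10 without P1 replicate 2, range -0.24 to 0.10). With the replicate number as a block, mitotic motors called lower from P14 to P28 were 2 and Kifc2 was not called from P1 to P28. That Kifc2 call (log2 fold change 1.29, adjusted p = 0.0423, limma) was lost in 12 of 22 alternatives, among them library totals (adjusted p up to 0.154). Deviations of libraries with the same number had correlations of -0.029 to 0.139, and those with different numbers -0.105 to 0.054. Values this small cannot decide whether libraries of one number shared a batch or litter. Depth limits Kif2c, Kif17, Kif18b and Kif23 at P28, where 0 to 2 reads remained over 3 libraries.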
